A study of Mus musculus with 4 samples.

Results

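Repressors of the BTB zinc finger family, their BACH relatives and Prdm1 were examined in cultured group 2 innate lymphoid cells (ILC2) with and without Ets1. The set holds 10 genes: Zbtb32, Zbtb16, Zbtb7a, Zbtb7b, Zbtb20, Zbtb1, Bcl6, Bach1, Bach2 and Prdm1. They are 10 of 18194 genes named on the array and are read by 29 of its 45101 probe sets, short groups of probes that each report 1 intensity for a transcript. Each gene is represented by its brightest probe set, the one with the highest mean over the 4 arrays, and the others serve as a check. The probe sets were chosen by that mean level, which includes the Ets1-deleted arrays. The choice is therefore not independent of the difference between groups. The genes themselves were proposed with the results of these arrays known, so their p-values describe these arrays and lend no independent support to a family pattern.

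ILC2 belong to the lymphocytes that carry no antigen receptor, and they secrete type 2 cytokines in tissues. Cells from C57BL/6 mice had spent 2 weeks on OP9-DL1, a stromal line that displays a Notch ligand, in the presence of IL-7 and IL-33. ICOS-positive cells were then sorted and their RNA was amplified and hybridised. Of the 4 arrays, 2 came from littermate controls and 2 from Ets1-deleted mice. Ets1 encodes a DNA-binding activator of lymphocytes, the founding ETS factor. Neither the age of the mice nor the way Ets1 was deleted is stated in the sources read here. All 11 ILC2 defining genes measured lay above the limit below which a probe set was called dim. That limit was 97.4 intensity units, the median over all probe sets. Their levels were not all alike between groups: 6 rose without Ets1, 2 fell and 3 did not pass an adjusted p of 0.05 (limma). Over all tested genes 13.9% rose and 12.8% fell. On the log2 scale the rises were Thy1 (1.91), Rora (1.29), Il17rb (0.93), Il5 (0.83), Il2ra (0.81) and Il13 (0.69). The falls were Klrg1 (-1.60) and Icos (-0.38). Klrg1 read 1954 and 1901 in the controls and 671.5 and 605.7 in the Ets1-deleted arrays. Ets1 on its brightest probe set read 1272 and 1231 in the controls and 138.1 and 180.2 in the Ets1-deleted arrays. Nothing says that the arrays came from separate animals or cultures, so any p-value reflects the spread among these arrays alone, which may be technical.

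Proteins with a BTB domain pair up through it and recruit corepressor complexes that carry histone deacetylases, while their zinc fingers choose the DNA site. BACH1 and BACH2 join a BTB domain to a leucine zipper, bind DNA with small MAF proteins and compete with activators of the NFE2 and AP-1 groups. BLIMP1, the product of Prdm1, is a zinc finger repressor without a BTB domain that opposes BCL6 and is itself a target of BACH2 in B and T cells. In lymphocytes these repressors are known for deciding between lineages and for delaying effector differentiation.

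The promoter sequences of members with a difference between groups, and of Prdm1 as a known target of BACH2, are shown because ETS factors read a GGAA core. RefSeq's promoter table (build GRCm38.p6) held 9 of the 10 genes, and Zbtb16 was not among them. Each line gives the 250 bases before the most upstream listed start, 5′ to 3′ on the strand of the gene. Capitals mark GGAA on either strand (TTCC where it lies on the other one) and, in Prdm1, the letters TGANTCA, which AP-1 and BACH factors are known to bind.
Zbtb32, chr7:30598910-30599159, minus strand: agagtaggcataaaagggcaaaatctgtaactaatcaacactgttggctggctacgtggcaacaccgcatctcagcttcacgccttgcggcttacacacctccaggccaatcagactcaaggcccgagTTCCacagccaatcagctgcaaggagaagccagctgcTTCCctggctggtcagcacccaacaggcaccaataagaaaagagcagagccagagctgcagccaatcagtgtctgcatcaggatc
Bach2, chr4:32417185-32417434, plus strand: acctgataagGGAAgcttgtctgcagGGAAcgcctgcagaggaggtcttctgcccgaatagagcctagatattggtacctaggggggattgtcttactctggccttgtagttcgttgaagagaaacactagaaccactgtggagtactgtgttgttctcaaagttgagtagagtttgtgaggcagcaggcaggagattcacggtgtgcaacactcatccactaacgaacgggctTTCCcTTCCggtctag
Prdm1, chr10:44458749-44458998, minus strand: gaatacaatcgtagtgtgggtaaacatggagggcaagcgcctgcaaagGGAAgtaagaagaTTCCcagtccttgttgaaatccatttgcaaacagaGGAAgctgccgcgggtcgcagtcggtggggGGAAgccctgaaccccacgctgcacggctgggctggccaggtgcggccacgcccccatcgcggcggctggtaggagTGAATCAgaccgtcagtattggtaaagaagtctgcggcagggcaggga
Zbtb1, chr12:76370270-76370519, plus strand: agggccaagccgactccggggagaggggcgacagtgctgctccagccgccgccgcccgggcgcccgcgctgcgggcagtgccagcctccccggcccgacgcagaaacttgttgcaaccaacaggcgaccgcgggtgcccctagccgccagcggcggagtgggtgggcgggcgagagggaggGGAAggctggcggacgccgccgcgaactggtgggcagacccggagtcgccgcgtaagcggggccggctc
Zbtb20, chr16:43247034-43247283, plus strand: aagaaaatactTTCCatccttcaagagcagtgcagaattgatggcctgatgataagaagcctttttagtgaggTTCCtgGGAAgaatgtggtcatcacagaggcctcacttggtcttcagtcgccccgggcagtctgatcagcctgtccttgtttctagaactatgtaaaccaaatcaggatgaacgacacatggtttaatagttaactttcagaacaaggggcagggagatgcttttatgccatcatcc

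GGAA occurred 2 times in this stretch of Zbtb32, 4 times in Bach2, 4 times in Prdm1, 1 time in Zbtb1 and 3 times in Zbtb20. Such a core is common: 93.4% of the promoters of 27025 genes held it, with a median of 3 matches. Bcl6, Bach1 and Zbtb7b had 4, 2 and 8 matches, and Zbtb7a had 0. The longer ETS sequence CCGGAAGT, found in 2.92% of all promoters on either strand, matched none of the 9 windows. TGANTCA, found in 6.85%, matched only Prdm1 among the 9, at 48 bases before the start. The BCL6 sequence TTCCTAGAA, which overlaps the ETS core in its TTCC and was found in 0.355%, had 0 matches in the 9. A match describes letters in a window and shows no binding.

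Zbtb32, Zbtb16 and Bach2 rose in the Ets1-deleted arrays, by 8.17-, 2.19- and 2.06-fold. Zbtb1 and Zbtb20 fell, by 1.32- and 1.26-fold. The remaining members, Zbtb7a, Zbtb7b, Bcl6, Bach1 and Prdm1, did not pass an adjusted p of 0.05 (limma, adjusted over 10873 tested genes, two-sided). Among all tested genes 13.9% were called higher and 12.8% lower, 26.7% together. On the brightest probe sets the groups did not overlap for 9 of the 10 genes, where 62.6% of all tested genes showed no overlap. All 10 genes passed the limit on dim values. Zbtb16 and Bach2 lay under it in both controls and passed only through their Ets1-deleted values, so the count of members called higher supports nothing beyond the genes themselves. In bulk RNA fewer cells of a type and less RNA per cell cannot be told apart. The median difference of the 10 genes was -0.20 on the log2 scale, against 0.00 over all tested genes.

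**Figure D1:**
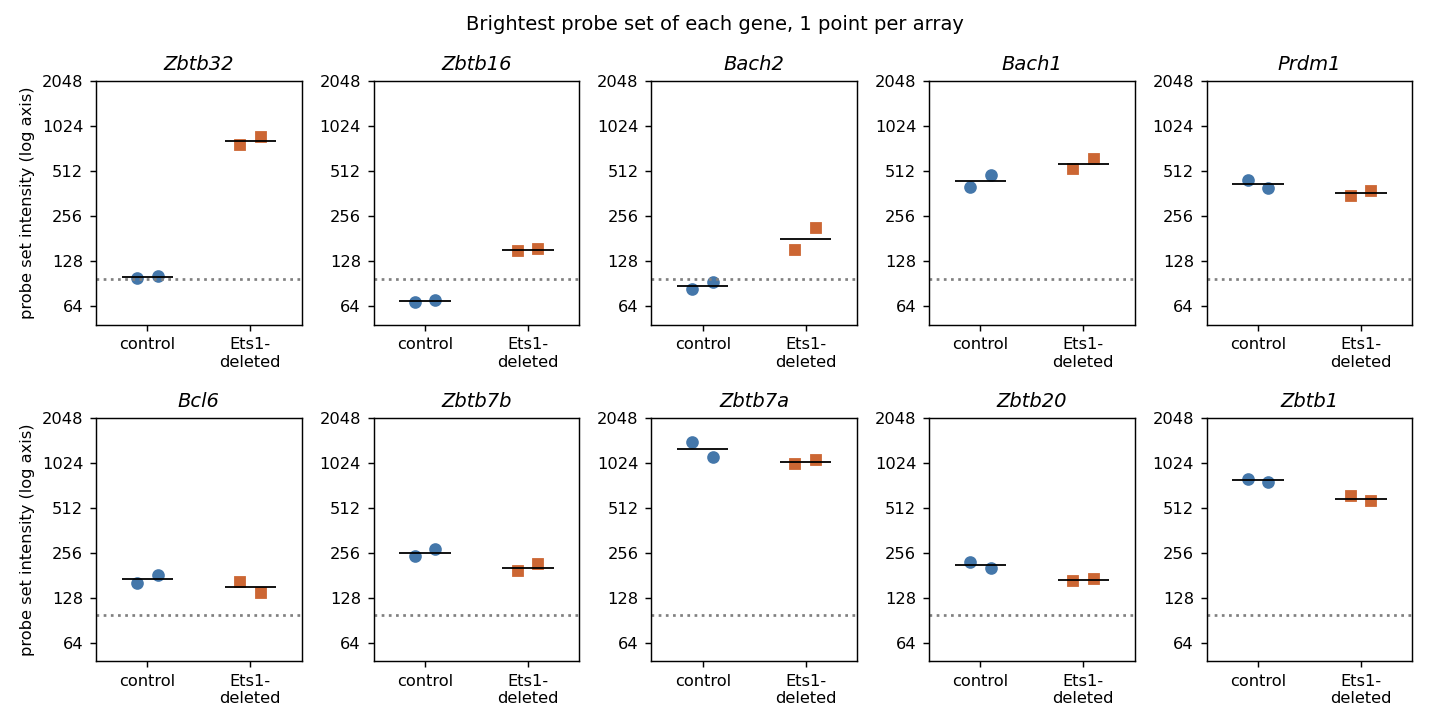
Intensity of the brightest probe set of each of the 10 genes on a log axis, with 1 point for each array, blue circles for the 2 controls, orange squares for the 2 Ets1-deleted arrays, a bar at the mean of the log2 values and a dotted line at the dim limit of 97.4. Zbtb32 moves from just above the limit to 769 and 870, Zbtb16 and Bach2 cross it, and the groups of Bcl6 overlap.

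Zbtb32 encodes a BTB zinc finger protein (also called ROG or PLZP) that was described as a repressor of GATA factors and restrains activated lymphocytes. Its brightest probe set read 98.6 and 101.8 intensity units in the controls and 768.8 and 870.0 in the Ets1-deleted arrays. Both controls stood just above the dim limit and both Ets1-deleted arrays far above it, with a gap within groups of at most 0.18 on the log2 scale. The difference was 3.03 ± 0.11 (log2, Ets1-deleted minus control, ± SE from limma, n = 2 per group), or 8.17-fold, with adjusted p = 1.06e-08 in limma. It was the 12th largest rise among 10873 genes. The second probe set of Zbtb32 read between 60.7 and 67.8 on all 4 arrays and differed by -0.06. It lay at the 14.8th percentile of all probe sets, and its mean with the brightest one gave a difference of 1.49 in place of 3.03. The place of either probe set on the transcript was not analysed here.

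Zbtb16 encodes PLZF, the factor that marks ILC precursors and drives the innate-like programme of NKT cells. Its brightest probe set read 68.6 and 70.4 in the controls and 150.2 and 155.0 in the Ets1-deleted arrays. The controls were dim and nearly identical, and the Ets1-deleted arrays read 2.19-fold higher. Zbtb16 rose by 1.13 ± 0.11 (limma, adjusted p = 9.32e-06). Its least bright probe set gave 1.12, from 47.0 and 47.0 to 95.1 and 110.0. A probe set of almost the same brightness as the main one gave only 0.23, from 91.6 and 95.5 in the controls to 110.2 and 109.3 (limma with 1 row per probe set, adjusted p = 0.155). That probe set read higher than the main one in both controls. The main one ranked first only through its Ets1-deleted values. The 3 probe sets shared a direction. The least bright one had controls under the 5th percentile of their arrays (56.0 and 56.2).

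Bach2 restrains effector differentiation and holds down Prdm1 in B and T cells. Its probe sets all read higher in the Ets1-deleted arrays with no overlap. The brightest read 83.5 and 92.3 in the controls and 152.2 and 214.1 in the Ets1-deleted arrays, a rise of 1.04 ± 0.15 (limma, adjusted p = 0.00028). Its Ets1-deleted arrays lay 0.49 apart on the log2 scale, the widest gap within a group among the main probe sets. Without Ets1-deleted 2 the difference was 0.79 and without Ets1-deleted 1 it was 1.29. The other probe sets, both under the dim limit, gave 0.86 (67.3 and 60.3 against 125.6 and 106.3) and 0.99 (49.5 and 54.7 against 98.5 and 108.1). The controls of the least bright one lay under the 5th percentile of their arrays. With the 5th percentile of each array subtracted, the differences of Bach2, Zbtb16 and Zbtb32 became 1.97, 2.59 and 4.11, so the folds of genes this dim in the controls depend on how the floor is treated.

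Bach1, the heme-sensing repressor of Hmox1 and of other oxidative stress genes, read 402.3 and 480.4 in the controls and 527.5 and 613.5 in the Ets1-deleted arrays. The groups did not overlap, and the difference of 0.37 ± 0.13 fell just short of the threshold (limma, adjusted p = 0.0503). Its second probe set gave nearly the same value, 0.36, from 125.6 and 156.9 to 191.4 and 169.1. Bach1 passed the threshold in 7 of 13 alternative settings, among them without control 2 (0.50) or without Ets1-deleted 1 (0.48). Without control 1 (0.24) or Ets1-deleted 2 (0.26) it did not pass. Prdm1, read by 1 probe set, gave 447.9 and 395.2 in the controls and 350.4 and 375.4 in the Ets1-deleted arrays. Both Ets1-deleted values lay below both controls, by a difference of -0.21 ± 0.12 that did not pass (limma, adjusted p = 0.204). The 95% interval of the Prdm1 difference ran from -0.47 to 0.04, and without control 1 the difference was -0.12.

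Bcl6, the repressor of germinal centre B cells and follicular helper T cells, was the only member whose groups overlapped on the brightest probe set. It read 159.4 and 180.5 in the controls and 163.9 and 137.4 in the Ets1-deleted arrays, a difference of -0.18 ± 0.13 (limma, adjusted p = 0.341; 95% interval -0.45 to 0.10). Without Ets1-deleted 2 the difference was -0.05 and without Ets1-deleted 1 it was -0.30, neither past the threshold. The second Bcl6 probe set gave -0.19 without overlap. Changes within that interval were therefore not resolved with these arrays.

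Zbtb7b encodes ThPOK, which commits thymocytes to the CD4 lineage. It read 245.0 and 269.3 in the controls and 193.2 and 215.0 in the Ets1-deleted arrays, and the groups did not overlap. Its difference of -0.33 ± 0.12 missed the threshold narrowly (limma, adjusted p = 0.0516; 95% interval -0.59 to -0.08). A second probe set gave -0.14. In 4 of 13 alternatives Zbtb7b passed, 1 of them being the fit without Ets1-deleted 2 (-0.41). Its close relative Zbtb7a, which encodes LRF, a factor of lymphoid fate and of erythroid cells, read 1418 and 1116 in the controls and 1003 and 1062 in the Ets1-deleted arrays. Control 1 alone stood high, and the difference of -0.29 ± 0.13 did not pass (limma, adjusted p = 0.131). Among the alternatives it passed only without control 2, at -0.46, and without control 1 the difference was -0.11. The other Zbtb7a probe sets gave -0.02 and -0.01, with overlapping groups.

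Zbtb1 is needed for lymphoid development and the survival of lymphoid progenitors. It read 797.4 and 763.7 in the controls and 609.9 and 570.8 in the Ets1-deleted arrays, without overlap. It fell by 0.40 ± 0.11 on the log2 scale, a 1.32-fold drop (limma, adjusted p = 0.0174). Its second probe set differed by -0.25 without overlap but did not pass (limma with 1 row per probe set, adjusted p = 0.131). Zbtb1 stayed short of the threshold when control 1 (-0.37), control 2 (-0.43) or Ets1-deleted 2 (-0.36) was left out, at adjusted p of 0.109, 0.051 and 0.0679 in limma. Zbtb20, known as a regulator of long-lived plasma cells and as a repressor in liver, read 222.3 and 203.0 in the controls and 166.3 and 169.6 in the Ets1-deleted arrays. It fell by 0.34 ± 0.11, the member closest to the threshold on its inner side (limma, adjusted p = 0.0409). That call was lost with any 1 array left out, with differences between -0.40 and -0.27 and adjusted p between 0.0745 and 0.281 in limma. Of its 9 probe sets only 4 were above the dim limit, and of these 1 gave 0.04 and the others -0.22 and -0.16 beside the main value.

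**Figure D2:**
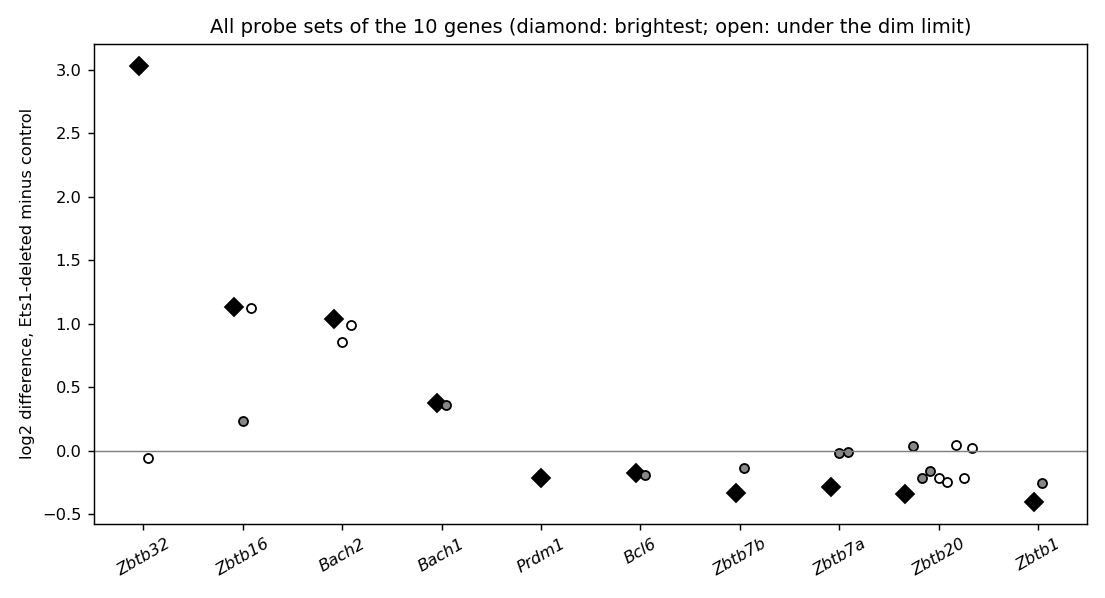
Log2 difference, Ets1-deleted minus control, for each of the 29 probe sets of the 10 genes, with diamonds for the brightest probe set of a gene, filled symbols for those above the dim limit and open symbols for those under it. The 3 probe sets of Bach2 lie between 0.86 and 1.04, those of Zbtb16 between 0.23 and 1.13, and the second Zbtb32 probe set lies at -0.06.

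Most of the wider BTB zinc finger family did not pass the threshold. Of 40 listed relatives beyond the members, 39 were measured and 33 were bright enough to test. Of these, 3 rose and 4 fell, 21.2% against 26.7% of all tested genes, with a median difference of 0.05. Zbtb18, a repressor known from neural development, rose by 1.02 ± 0.13, from 149.0 and 132.5 to 315.3 and 258.3. Zfp131 rose by 0.56 and Zbtb21 by 0.44. The Zfp131 call was lost without control 2 (0.43), and that of Zbtb21 without control 2 (0.33) or Ets1-deleted 1 (0.33), so 1 relative passed as higher without control 2. Zbtb7c, the third gene of the Zbtb7 group, fell by 1.11 ± 0.15, from 257.4 and 303.2 to 112.0 and 149.6. Zbtb4, a methyl-CpG binding member, fell by 0.71, Zbtb42 by 0.57 and Zbtb2 by 0.37. Leaving out control 1 (-0.36), control 2 (-0.37) or Ets1-deleted 2 (-0.24) ended the call of Zbtb2. With the 7 BTB zinc finger members included, 5 of 40 tested genes of the family rose and 6 fell.

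**Figure D3:**
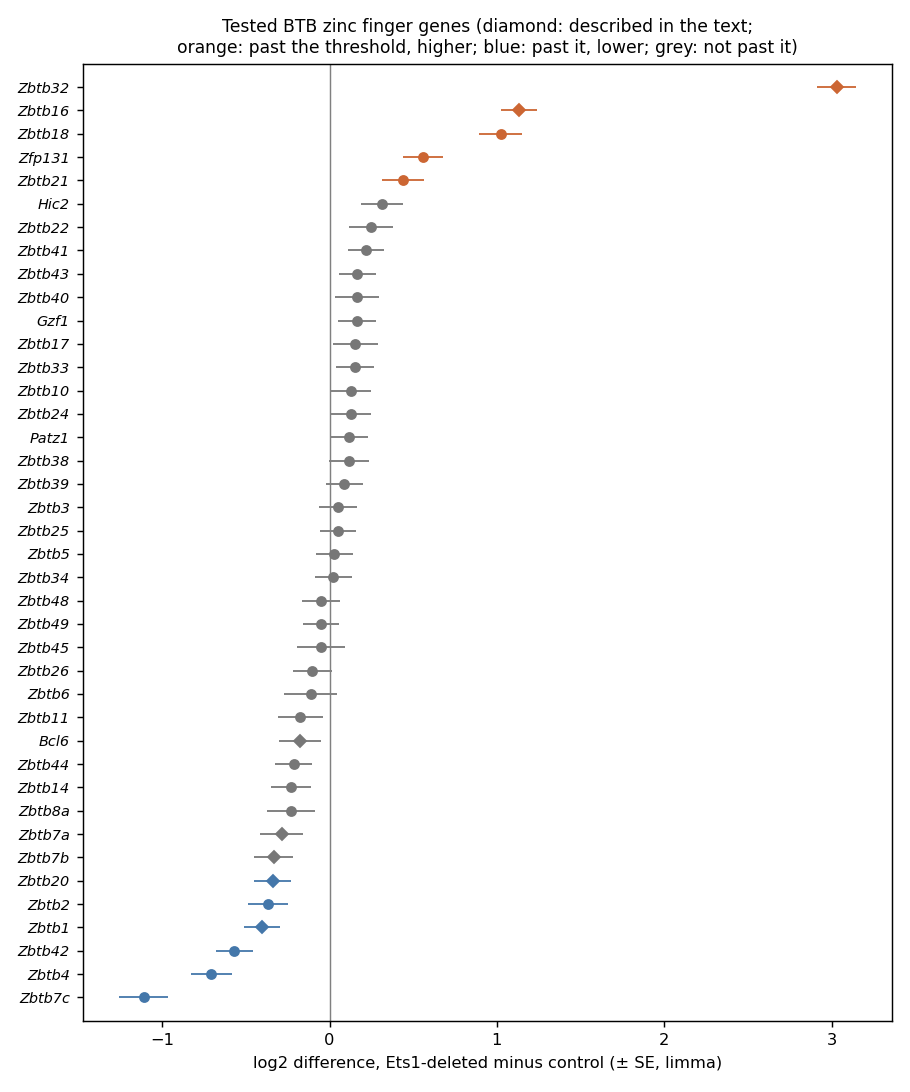
Log2 difference with its SE (limma) for the 40 tested BTB zinc finger genes, ordered by size, with diamonds for the 7 that belong to the described set and colour for those past the adjusted threshold of 0.05. Zbtb32 at 3.03 stands apart, Zbtb16 and Zbtb18 follow at 1.13 and 1.02, and Zbtb7c at -1.11 is the lowest.

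The DNA-binding partners and competitors of the BACH proteins moved in both directions. Of 7 tested genes, 4 rose and 1 fell, with a median of 0.38, where 13.9% of all tested genes rose and 12.8% fell. Of the small MAF genes, whose products pair with BACH proteins, Maff rose by 1.64 ± 0.14, from 139.7 and 144.6 to 510.7 and 386.1. Mafk rose by 0.38, a call that ended when control 1 (0.43), control 2 (0.32) or Ets1-deleted 2 (0.35) was left out, and Mafg differed by 0.16 (limma, adjusted p = 0.344). Nfe2 rose by 1.33 ± 0.11, but its controls (79.5 and 85.3) lay under the dim limit, so it was tested only through its Ets1-deleted values of 204.4 and 211.1. Nfe2l1, an activator of the same group, rose by 0.62. Nfe2l2, which encodes NRF2, the activator that BACH1 opposes, fell by 0.55 ± 0.11, from 1186 and 1191 to 771.6 and 855.1.

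Of 10 tested heme and antioxidant genes that BACH1 is known to repress, 4 rose, 0 fell and 6 did not pass, with a median of 0.37. Over all tested genes 13.9% rose, and 1 of the 4, Slc7a11, was tested only through its Ets1-deleted values. Hmox1, which encodes heme oxygenase 1, read 556.6 and 440.3 in the controls and 1102 and 1073 in the Ets1-deleted arrays and rose by 1.14 ± 0.13 (limma, adjusted p = 3.86e-05). Slc7a11, a cystine transporter gene, rose by 1.78 from dim controls (73.0 and 62.4), Gclc of glutathione synthesis by 0.76 and Nqo1, a quinone reductase gene, by 0.64. Gclm, the partner subunit of Gclc, differed by -0.10 (limma, adjusted p = 0.616). Me1 passed as lower without Ets1-deleted 1 (-0.43), the 1 fall seen with an array left out. Hmox1 is also abundant in macrophages. Of 9 tested myeloid markers 9 rose (6 without control 1), and the 13 measured summed to 2211 and 2469 in the controls and 4108 and 4100 in the Ets1-deleted arrays. Csf1r rose by 1.01, Fcgr3 by 1.18, Adgre1 by 0.67 and Spi1 by 0.50. The controls of Adgre1 (73.0 and 84.7) lay under the dim limit, so it was tested only through its Ets1-deleted values. Cebpa and Csf3r lay under the dim limit on every array, Csf3r with 68.8 and 69.6 in the controls and 94.9 and 90.1 in the Ets1-deleted arrays. Itgam was also too dim to test and did not rise, at 98.0 and 90.5 in the controls and 89.0 and 95.2 in the Ets1-deleted arrays (-0.03). Elane, untested as well, differed by 0.18 with overlapping groups. The part of myeloid cells in these values was not tested.

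Among 12 corepressor and histone deacetylase genes that serve BTB proteins, 1 rose and 2 fell, with a median of 0.02. That is 25% called, near the 26.7% of all tested genes. Tbl1x, which encodes a corepressor subunit, rose by 0.56 ± 0.12. Hdac5 fell by 0.43 and Bcor, the BCL6 corepressor gene, by 0.33. The Bcor call was lost with any 1 array left out (-0.40 to -0.26) and with median centring (-0.32). That of Hdac5 was lost without control 2 (-0.37) or Ets1-deleted 1 (-0.39), so 0 falls passed without either of these arrays.

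Of 10 tested genes tied to BLIMP1 and BCL6 in lymphocytes, 2 rose and 4 fell, with a median of -0.14. The shares over all tested genes were 13.9% higher and 12.8% lower. Id3, whose product blocks E proteins, fell by 1.31 ± 0.11, from 367.5 and 395.1 to 155.7 and 152.1. Irf4, which activates Prdm1, fell by 0.75, the egress receptor gene S1pr1 by 0.49 and the chemokine receptor gene Ccr7 by 0.47. Without control 1 the calls of S1pr1 (-0.41) and Ccr7 (-0.39) were lost. Il10 rose by 0.52 ± 0.11 and Xbp1, a factor of secretory cells, by 0.45, a call lost without control 2 (0.42) or Ets1-deleted 1 (0.24). Myc, a BLIMP1 target in B cells, differed by -0.01 (limma, adjusted p = 0.983), and Gata3, which encodes the GATA factor that ROG is known to repress, by 0.08 (limma, adjusted p = 0.658). Gata3 read 2807 and 2741 in the controls and 3032 and 2828 in the Ets1-deleted arrays.

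Of 11 tested genes tied to ThPOK, ROG or PLZF, 5 rose and 2 fell, with a median of 0.14. Over all tested genes 13.9% rose and 12.8% fell. Il17a rose by 2.20 ± 0.12, Il18r1 of the IL-18 receptor by 1.25, Ccr6 by 1.03, Il5 by 0.83 and Il13 by 0.69. The controls of Il17a (86.5 and 93.0) lay under the dim limit, so this rise was tested only through its Ets1-deleted values. Il4 fell by 0.68 and Icos, the gene of the sorting marker, by 0.38. Icos no longer passed when control 1 (-0.35), control 2 (-0.42) or Ets1-deleted 1 (-0.33) was left out, which left 1 fall. Runx3, which ThPOK represses in CD4 T cells, differed by 0.08 with overlapping groups (limma, adjusted p = 0.647). Cd4 and Cd8a, the coreceptor genes at the CD4 against CD8 choice, lay between 77.8 and 97.4 on all 4 arrays, under the dim limit, and were not tested.

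**Figure D4:**
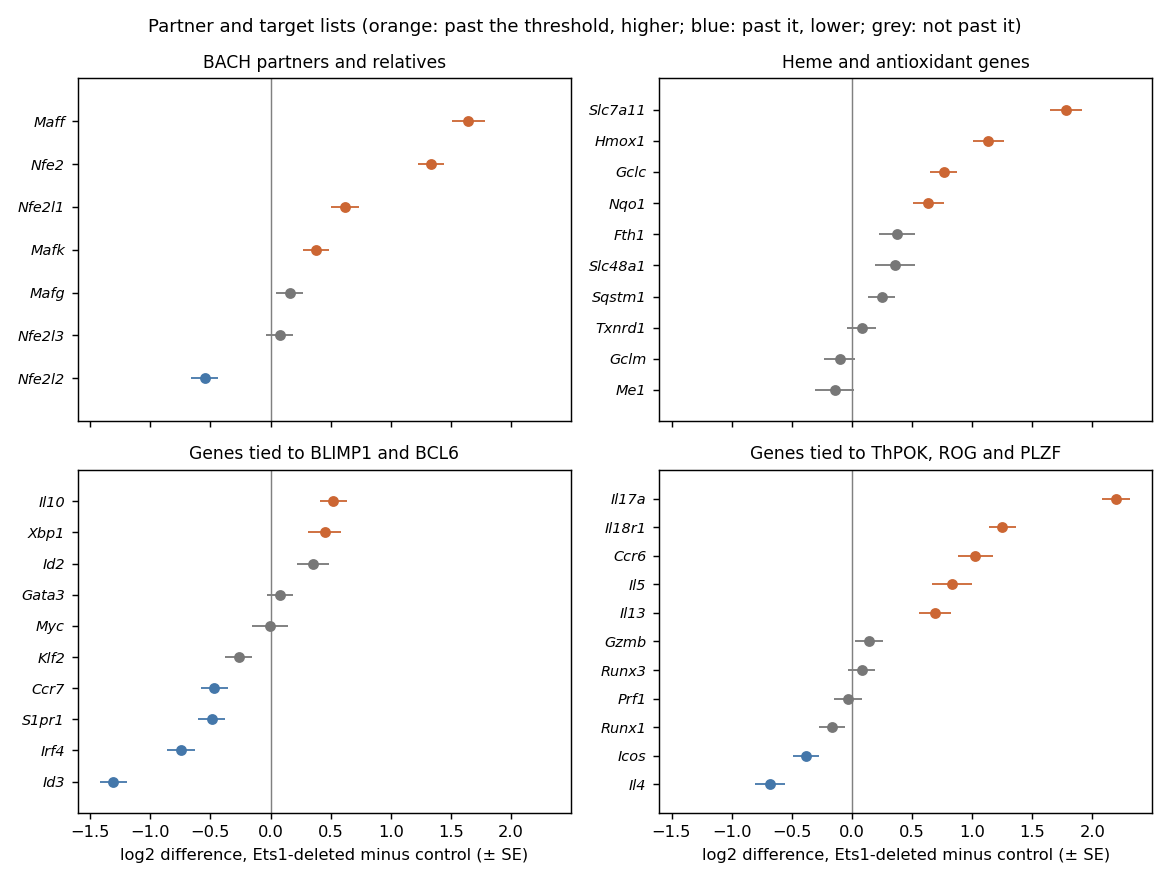
Log2 difference with its SE (limma), Ets1-deleted minus control, for the tested genes of 4 lists of partners and targets, with orange for genes past the adjusted threshold of 0.05 and higher, blue for those past it and lower and grey for the rest. Maff (1.64), Hmox1 (1.14) and Il17a (2.20) are among those higher, and Nfe2l2 (-0.55) and Id3 (-1.31) among those lower.

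Several of these repressors are also active in T cells, B cells or plasma cells, so markers of those cells were read on the same arrays. Beside each count below stand the shares over all tested genes, 13.9% higher and 12.8% lower. Of 10 tested T cell markers 6 rose and 1 fell, and the summed intensity of 13 measured markers was 4584 and 4650 in the controls and 8299 and 8659 in the Ets1-deleted arrays. Cd3e read 102.8 and 81.6 in the controls and 803.3 and 991.6 in the Ets1-deleted arrays, while Cd4, Cd8a and Cd5 lay under the dim limit on every array. The T cell marker that fell was Zap70, from 285.2 and 334.4 to 111.3 and 178.0 (-1.13). Lat, Cd6 and Themis did not pass the threshold. The 9 measured B and plasma cell markers summed to 1008 and 1018 in the controls and 826.2 and 843.5 in the Ets1-deleted arrays. Among them Cd79a, Pax5, Ebf1, Ms4a1 and Jchain lay under the dim limit on every array, and Sdc1 rose by 0.96. Cd79b fell by 2.12, from 381.4 and 379.9 to 91.6 and 83.5, more than the fall of the sums. Of 8 tested mast cell and basophil markers 6 rose and 0 fell, with sums of 2436 and 2449 against 4180 and 4002. Most of that rise in the sums came from Cpa3. Both Cpa3 and Hdc lay under the dim limit in the controls, so they were tested only through their Ets1-deleted values. Mcpt8 went from 1337 and 1385 to 1097 and 1193 (-0.25), and Tpsb2 differed by 0.06. Neither of these passed the threshold. Cpa3, a mast cell protease gene, read 85.9 and 78.3 in the controls and 1497 and 1261 in the Ets1-deleted arrays (4.07), and Mcpt2 rose by 1.39. Of the genes of the high-affinity IgE receptor, Fcer1a lay under the limit on every array, and Ms4a2 went from 72.0 and 63.7 to 92.7 and 103.6 and was not tested. The NK and ILC1 markers had 2 rises and 2 falls among 6 tested, with Ncr1, Tbx21 and Eomes under the limit on every array. Their sums were 6540 and 6318 against 9066 and 8053, most of it Gzma, which went from 4604 and 4418 to 7290 and 6285. The other rise was Klrc1, tested only through its Ets1-deleted values because its controls were dim (76.4 and 63.6). The falls were Itga2 (-1.02) and Klrk1 (-0.46). Without control 1 or Ets1-deleted 2 only 1 of these falls passed. Of 7 tested stromal markers 1 rose and 3 fell, with sums of 2399 and 2396 against 2576 and 2591, and 1 fall passed without control 2 or Ets1-deleted 1. The stromal marker that rose was Timp3, from 126.4 and 151.7 to 878.7 and 750.6, more than the rise of the stromal sums. Those that fell were Pdgfrb (-0.85), Cxcl12 (-0.41) and Vcam1 (-0.34). What T, mast and myeloid cells contribute to the values of Zbtb32, Zbtb16 and Bach2 was not tested.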

How the data were processed

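Biotin-labelled RNA of sorted ICOS-positive ILC2 was hybridised to 4 Affymetrix arrays, 2 per group. The authors deposited 1 intensity per probe set, made with RMA per the submitters' processing notes; its software and version are not given. They were read as linear from their range and turned into log2. Array medians lay between 96.5 and 97.7, so no further normalization was applied. Of 45101 probe sets, 34958 had 1 gene symbol in the platform annotation, 932 had several and 9211 were not listed.

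Each gene was represented by its probe set of highest mean log2 value, and entered the test if that mean was at or above the median over all probe sets. Ets1-deleted arrays were compared with controls by lmFit and eBayes of limma (version 3.58.1, R 4.3.3), two-sided, with Benjamini-Hochberg adjustment over 10873 genes, of which 2900 passed 0.05. The fit has 2 residual and 9.75 prior degrees of freedom per gene; with each gene's own variance alone 13 genes and 0 members passed. With 2 against 2 arrays their number limits the precision. The fit and the motif search were tested on simulated data. The members and gene lists were chosen with earlier results of these data known. Named were all members, listed genes past the threshold (up to 4 in each direction) and a set of partners and targets. Alternatives were other scalings, filters, probe set summaries, variance models, a replicate block and leaving out each array. Those applied to list counts were chosen after seeing the data.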

Additional observations from a re-analysis of the deposited data

How the results depend on the processing

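Zbtb32, Zbtb16 and Bach2 kept their direction and passed the threshold in each alternative that kept 1 value per gene and tested them (13, 11 and 12). With 1 row per probe set, the second Zbtb16 probe set did not pass (0.23, adjusted p = 0.155 in limma). No member changed sign on its main probe set in any alternative; among other probe sets above the dim limit, 1 of Zbtb20 had the opposite sign (0.041). The count of members past the threshold was 5, and 3 to 5 with 1 array left out. The count of members called lower was 2, and 0 to 1 with 1 array left out. It was 1 with the mean over probe sets, where Zbtb20 and Zbtb16 fell under the dim limit and were not tested. Members called higher stayed at 3 in that setting, with Bach1 (0.37) in place of Zbtb16. A filter at the 70th percentile left Zbtb16 and Bach2 untested. Prdm1 and Bcl6 passed in none of the alternatives run. Replicate numbers are shared between the groups, but only as numbers: deviations of the replicate 1 arrays correlated at 0.167 over 10873 genes, and 2 pairs cannot show a pairing. With the replicate block 7 members and 3252 genes passed, among them Bach1 (0.37) and Zbtb7b (-0.33). Where 1 array was left out, the lone array of its group gave no spread, so the spread came from the other group. In the fits without 1 control, the adjusted p of the genes described here followed the size of the difference alone. That is what 1 variance shared by all genes gives, so the spread of each gene did not enter. Calls kept or lost with 1 array left out rest on these assumptions. Counts in the gene and marker lists stayed within 1.5 times in 300 of 338 cases, fell below in 34 and rose above in 4. Corepressor genes called lower went from 2 to 1 with median centring or the floor subtracted. With the mean over probe sets 5 further BTB genes were called higher in place of 3, and 4 genes tied to ThPOK, ROG or PLZF lower in place of 2. Probe sets near the floor limit what can be said of Zbtb16, Bach2 and the second Zbtb32 probe set.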
